A study of Mus musculus with 4 samples.

Results

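The genes described here handle cholesterol after it has entered a cell. They are 10 of the 16342 genes listed in any of 4 count tables, chosen by name: the sterol sensors Nr1h2 and Nr1h3, the oxysterol maker Ch25h, the exporters Abca1 and Abcg1, the ubiquitin ligase Mylip, the esterifying enzyme Soat1, and the lysosomal genes Lipa, Npc2 and Npc1. All 10 were listed in every table. RNA was measured in single cells of the corpus callosum of male C57BL/6 mice, labelled as 13 weeks old in both groups. Week 0 was untreated and week 5 had received Cuprizone, a copper chelator fed to mice to strip myelin, with 2 libraries per group. The cells were live, nucleated and positive for CD11b, an integrin of myeloid cells, so other cells of the tissue were gated out. The labels do not say whether the 2 libraries of a group came from separate mice, and p-values then measure only the spread between libraries.

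Macrophages and microglia that take up myelin meet much cholesterol, which they cannot break down. In the lysosome, acid lipase (Lipa) frees cholesterol from its esters, the soluble carrier Npc2 hands it to the membrane protein Npc1, and Npc1 releases it to other membranes. Excess cholesterol is esterified by Soat1 for storage in droplets, or exported by Abca1 to lipid-poor apolipoproteins and by Abcg1 to formed particles. Oxysterols, among them the 25-hydroxycholesterol made by Ch25h, activate the liver X receptors Nr1h2 and Nr1h3, which with retinoid X receptors switch on Abca1, Abcg1, Apoe and Mylip, whose product marks the LDL receptor for degradation.

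The promoters of Ch25h and Abca1 are shown because the first gene had the largest difference between weeks among the members and the second is the textbook target of the liver X receptors. Both run 5′ to 3′ from 250 bases before to 50 bases after the start in RefSeq (GRCm38.p6), on the minus strand, at chr19:34475099-34475398 for Ch25h and chr4:53159846-53160145 for Abca1. Capitals mark the motifs found on either strand.
Ch25h: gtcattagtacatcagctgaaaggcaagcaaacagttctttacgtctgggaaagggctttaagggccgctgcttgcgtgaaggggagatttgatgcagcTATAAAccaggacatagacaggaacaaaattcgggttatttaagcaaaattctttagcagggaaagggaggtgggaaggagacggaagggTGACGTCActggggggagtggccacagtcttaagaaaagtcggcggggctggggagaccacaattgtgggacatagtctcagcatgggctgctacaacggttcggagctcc
Abca1: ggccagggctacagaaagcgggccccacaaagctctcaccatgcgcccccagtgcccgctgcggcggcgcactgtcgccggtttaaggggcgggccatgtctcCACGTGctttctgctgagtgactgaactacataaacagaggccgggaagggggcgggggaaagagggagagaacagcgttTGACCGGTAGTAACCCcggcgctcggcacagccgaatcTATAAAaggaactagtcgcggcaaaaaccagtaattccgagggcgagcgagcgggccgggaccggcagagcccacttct
The capitals in Ch25h are the TATA letters TATAAA and the cyclic AMP response element TGACGTCA. Those in Abca1 are, in order, the E-box CACGTG, the match to the receptors' repeat (DR4) and TATAAA. Of the 10 members, 8 had a promoter in the table. TGACGTCA was found in 1 of these 8 and in 1.79% of all 32851 promoters, CACGTG in 1 of 8 and 7.15%, TATAAA in 4 of 8 and 13.6%, CCAAT in 4 of 8 and 37.4%, and TCACGTGA, which holds CACGTG, in 0 of 8 and 0.974%. The repeat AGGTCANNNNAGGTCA, searched on both strands like the others, had no match within 2 mismatches in any of the 8 and matched 3.02% of all promoters. The limit was then widened to 3 mismatches, where Abca1 alone matched among the 8, starting at -67 from the start, beside 21.9% of all promoters. These matches describe letters in a window only.

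In GENCODE M21 (GRCm38), whose gene models were read for position and not for counting, all 10 are protein-coding. Ch25h lies at chr19:34473778-34475164 and Lipa close by at chr19:34492318-34527474. Abca1 spans chr4:53030787-53159895, Abcg1 chr17:31057675-31117988, Soat1 chr1:156424525-156474331 and Npc2 chr12:84754562-84773152. Nr1h2 spans chr7:44549616-44553951, Nr1h3 chr2:91184061-91202834, Npc1 chr18:12189692-12236400 and Mylip chr13:45389742-45412022. Only Abcg1 and Mylip lie on the plus strand. Ch25h, Soat1, Npc1 and Nr1h3 overlap genes on the other strand (Gm26902 for Ch25h, Gm37648 for Soat1, Rmc1 and Gm15956 for Npc1, Gm23390 for Nr1h3), and Abcg1 and Nr1h3 overlap Gm25447 and Gm13783 on their own. The sources used here do not say how reads in such overlaps were assigned.

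The tables held 2415001 and 4631622 UMIs (unique molecular identifiers, each 1 counted molecule) at week 0 and 6559032 and 3322818 at week 5, over 1000 barcodes each. Clusters carrying microglia markers held 902, 905, 913 and 856 cells of the 4 libraries and are called microglia-like, and their median depth was 1500, 3913, 6081 and 2336 UMIs. P2ry12, a defining microglia marker, had 7634, 17136, 8057 and 5488 UMIs in them. In CPM (UMIs scaled to a common total, here of all UMIs) it fell from 3435 and 3808 to 1316 and 1815 at week 5. Summed monocyte markers were at 8.55 and 11.3 CPM at week 0 and 129 and 26.8 at week 5. Fn1 gave 722 and 35 of the week 5 UMIs, and the defining monocyte marker Ly6c2 had 0, 0, 0 and 1. Summed T and NK cell markers were at 0.900 and 1.33 CPM at week 0 and 40.3 and 31.8 at week 5. Ccl5 gave 242 and 87 of their week 5 UMIs, and the defining gene Trac had 0 in all 4 libraries. Oligodendrocyte precursor markers were at 0.900 and 0.444 against 20.4 and 6.95 CPM. Neutrophil markers stood at 289 CPM in week 0 replicate 2 and at no more than 0.163 CPM in any other library. The choroid plexus gene Ttr had 161, 4, 1421 and 12 UMIs. Between libraries 6 barcodes were shared. Week 5 replicate 1 was thus the deepest library and the one with the most Fn1 and Ttr, and the part of these in the results below was not tested.

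In microglia-like cells, Ch25h was the 1 member of 9 tested that rose at week 5. It passed the gene filter of the test through its week 5 counts alone, so its entry and its call are not independent. Across all 11071 genes tested, 3.63% were called (adjusted p under 0.05, edgeR's quasi-likelihood test with Benjamini-Hochberg adjustment over all genes) and 3.26% were called higher. Abcg1, Npc2 and Soat1 were higher in both week 5 libraries but did not pass, and Npc1 was lower in both without passing. The 9 members had a median log2 fold change of 0.57, against -0.01 for all genes tested. An unadjusted p under 0.05 in edgeR was found for 4 of them, beside 1522 of all 11071 genes. Both week 5 libraries lay above both week 0 libraries in 4 of 9 members and below in 1 of 9, against 20.5% and 22.1% of all genes tested.

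The oxysterol maker Ch25h, which adds a hydroxyl group to cholesterol, had 2 and 0 UMIs at week 0 and 431 and 59 at week 5, summed over the microglia-like cells of each library. In CPM scaled to the effective library size, as are all levels from here on unless stated, this was 0.829 and 0 against 84.7 and 19.2. Week 5 replicate 1 was far above replicate 2, and both were far above week 0. The log2 fold change was 7.41 (SE 0.97, edgeR adjusted p = 0.00102), a fitted value that rests on 2 week 0 molecules. By counts alone the ratio was 217 (95% counting interval 59.8 to 1799), or 307 with week 5 replicate 1 and 69.4 with replicate 2. The call was lost under limma-voom (adjusted p = 0.0639). The fitted log2 fold change ran from 5.92 without week 5 replicate 1, through 5.94 without week 0 replicate 2 and 8.15 without week 5 replicate 2, to 10.84 without week 0 replicate 1. It was 5.91 over all cells without any naming of clusters.

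Few cells held Ch25h. At week 0, a UMI of it was found in 1 of 902 and 0 of 905 cells (0.111%, exact 95% interval 0.00281% to 0.616%, and 0% to 0.407%). At week 5, 94 of 913 (10.3%, 8.40% to 12.5%) and 24 of 856 (2.80%, 1.80% to 4.14%) had one. The richest cell held 32 and 7 UMIs in week 5 replicates 1 and 2. With every cell thinned to 1000 UMIs the shares were 0.132% and 0% at week 0 and 3.52% and 1.46% at week 5, so week 5 stayed above week 0 at equal depth. Unnamed cells, led by genes of choroid plexus or oligodendrocytes, had a UMI in 0 of 15 and 0 of 20 cases at week 5, which allows shares of up to 20% and 15% by the floor of 3 counts (exact upper limits 21.8% and 16.8%). Their median depth was 6843 and 2067 UMIs. So few cells set no useful limit on free RNA.

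**Figure D1:**
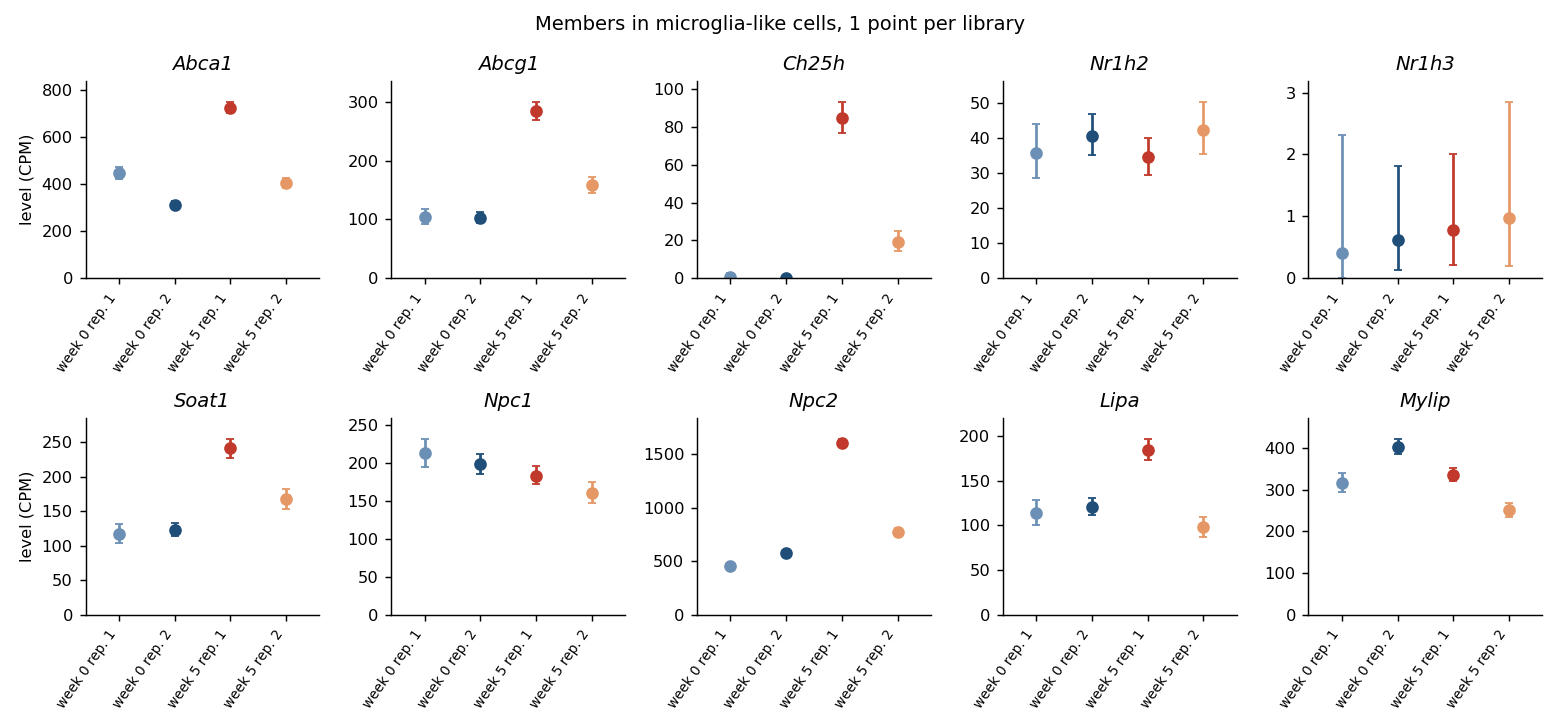
Level of each member (CPM, linear axes from 0) in microglia-like cells, 1 point per library, with bars for the 95% counting interval. Ch25h stands at 0.829 and 0 CPM at week 0 against 84.7 and 19.2 at week 5, and for Abca1, Nr1h2, Lipa and Mylip the 2 weeks overlap.

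Of the liver X receptors, Nr1h2 (LXR beta) was found at similar levels in the 4 libraries and Nr1h3 (LXR alpha) hardly at all. Nr1h2 stood at 35.6 and 40.6 CPM before treatment, and at 34.4 and 42.2 after it. The weeks overlapped (log2 fold change -0.01, SE 0.22, edgeR adjusted p = 0.995), and the sign turned under 9 of 16 other settings. Nr1h3 had 1 and 3 UMIs at week 0 and 4 and 3 at week 5 in all microglia-like cells of each library. These counts were too low for the test. Their ratio was 1.55 with a counting interval from 0.395 to 7.23, so a difference was not detectable at this depth. Nr1h3 overlaps Gm13783 on its own strand, and the part of this or of 3′ capture in the low counts was not tested.

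Both exporters lay highest in week 5 replicate 1. Abca1 was at 446 and 313 CPM before treatment, and at 724 and 403 after it. Week 5 replicate 2 lay between the 2 week 0 libraries, so the weeks overlapped, and the log2 fold change of 0.57 (SE 0.34) did not pass (edgeR adjusted p = 0.551). Abcg1 was at 104 and 103 CPM before, and at 284 and 158 after. Here both week 5 libraries lay above both week 0 libraries, which were nearly equal. Its log2 fold change was 1.10 (SE 0.29, adjusted p = 0.0660), just short of the threshold. It passed in DESeq2 (adjusted p = 0.0133), without a gene filter (0.00243), in cells with at most 2900 genes (0.00620) and without cells of 3 and more state genes (0.0319). With the replicate number as a block it also passed (0.0417). Its highest adjusted p over all settings was 0.464, with thinned cells.

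Mylip, the ligase gene that the same receptors switch on, was not higher at week 5. Its level was 317 and 403 CPM before treatment, and 336 and 251 after it. The weeks overlapped (log2 fold change -0.30, SE 0.28, adjusted p = 0.758). Its highest value was in week 0 replicate 2 and its lowest in week 5 replicate 2.

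Soat1, which esterifies cholesterol for storage, was at 117 and 123 CPM before treatment, and at 241 and 168 after it. Both week 5 libraries were above both week 0 libraries. At 0.77 (SE 0.26) on the log2 scale, the difference did not pass (edgeR adjusted p = 0.155).

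Of the 3 lysosomal members, none passed between the weeks. Npc2, the soluble carrier, was at 452 and 575 CPM before treatment, and at 1608 and 777 after it. Both week 5 libraries were higher, replicate 1 by far, and the log2 fold change of 1.22 (SE 0.39) did not pass (edgeR adjusted p = 0.137). It passed in DESeq2 (0.00724), without a gene filter (0.0200) and in cells with at most 2900 genes (0.0413). Npc1, the membrane protein that takes cholesterol over from Npc2, was at 213 and 199 CPM before, and at 184 and 161 after. Both week 5 libraries were a little lower, and the difference did not pass (log2 fold change -0.25, SE 0.24, adjusted p = 0.755). Lipa, the acid lipase, was at 114 and 121 CPM before, and at 184 and 97.7 after. The week 5 libraries stood on either side of week 0 (log2 fold change 0.27, SE 0.29, adjusted p = 0.794).

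Week 5 replicate 2 decided several of these calls. Without it 6 members were called, Ch25h together with Abca1 (log2 fold change 0.98, edgeR adjusted p = 0.0124), Abcg1 (1.51, 8.68e-08), Soat1 (1.05, 0.000471), Npc2 (1.70, 8.93e-06) and Lipa (0.70, 0.0404), among 1499 genes called in all against 402 with it. The week 5 arm is then a single library that is assumed to vary like week 0. Without week 5 replicate 1 only Ch25h was called among the members, and Lipa had a log2 fold change of -0.26. The libraries of week 5 differed from each other in all 6 genes, replicate 1 being the higher each time.

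Week 5 microglia were then divided by state. A cell's state was the number of 11 genes of the disease-associated state (Spp1, Cst7, Axl, Itgax, Clec7a, Lgals3, Gpnmb, Igf1, Csf1, Fabp5 and Lilrb4a, none of them a member) with a UMI after thinning the cell to 1000 UMIs. Of the thinned cells, 417 and 504 of week 5 replicates 1 and 2 had no state gene, 257 and 187 had 1 to 2, and 178 and 64 had 3 and more. At week 0, 1 and 0 cells had 3 and more. The class is a range and not a cell type, and 148 and 77 week 5 cells lay at 2 or 3 genes, next to the limit. Cells with 3 and more genes had a median of 12410 UMIs in replicate 1 and 2290 in replicate 2, against 5520 and 4303 in cells with none. They were thus deeper in one library and shallower in the other.

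Within week 5, 6 of the 9 tested members were higher in cells with 3 and more state genes than in cells with none: Ch25h, Npc2, Soat1, Lipa, Abcg1 and Abca1. Nr1h2, Npc1 and Mylip did not pass and had fitted log2 fold changes between 0.02 and 0.09. Of all 10220 genes tested (state genes left out), 26% were called and 15.1% were called higher. The members had a median log2 fold change of 1.01, against -0.05 for all genes. The fit compares classes within 2 libraries, so its p-values rest on how alike those 2 libraries are.

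Ch25h had the largest fold of the members. In week 5 replicate 1 it was at 2.85 CPM in cells with no state gene, 45.5 with 1 to 2 and 220 with 3 and more. In replicate 2 the levels were 4.59, 16.9 and 153 CPM. The order was the same in both libraries and the classes at either end did not overlap. The log2 fold change was 5.59 (SE 0.29, edgeR adjusted p = 1.98e-11), and within each library the highest class stood 77.1-fold and 33.4-fold above the lowest. Cells with 3 and more state genes gave 80.2% and 59.3% of the Ch25h UMIs of the 2 libraries while giving 34.3% and 8.86% of all UMIs. A UMI of Ch25h was found in 62 of 178 (34.8%) and 12 of 64 (18.8%) of these cells, against 5 of 417 (1.20%) and 4 of 504 (0.794%) of those with none. After thinning the shares were 12.9% and 9.38% against 0.240% and 0.397%.

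The lysosomal genes Npc2 and Lipa and the storage enzyme Soat1 were higher with the state as well. Npc2 was at 702, 1399 and 2572 CPM from the lowest to the highest class in week 5 replicate 1 and at 552, 852 and 1713 CPM in replicate 2. It climbed through all classes in both libraries (log2 fold change 1.75, SE 0.16, adjusted p = 5.67e-08). Soat1 was at 113, 213 and 368 CPM in replicate 1 and 116, 197 and 311 CPM in replicate 2. These values nearly coincide between the libraries, and the log2 fold change was 1.59 (SE 0.15, adjusted p = 8.47e-08). Lipa was at 104, 157 and 260 CPM in replicate 1 and 73.9, 102 and 175 CPM in replicate 2. Replicate 1 was higher in each class, and the fold over the lowest class was alike, 2.49 and 2.37 (log2 fold change 1.29, SE 0.16, adjusted p = 2.13e-06).

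**Figure D2:**
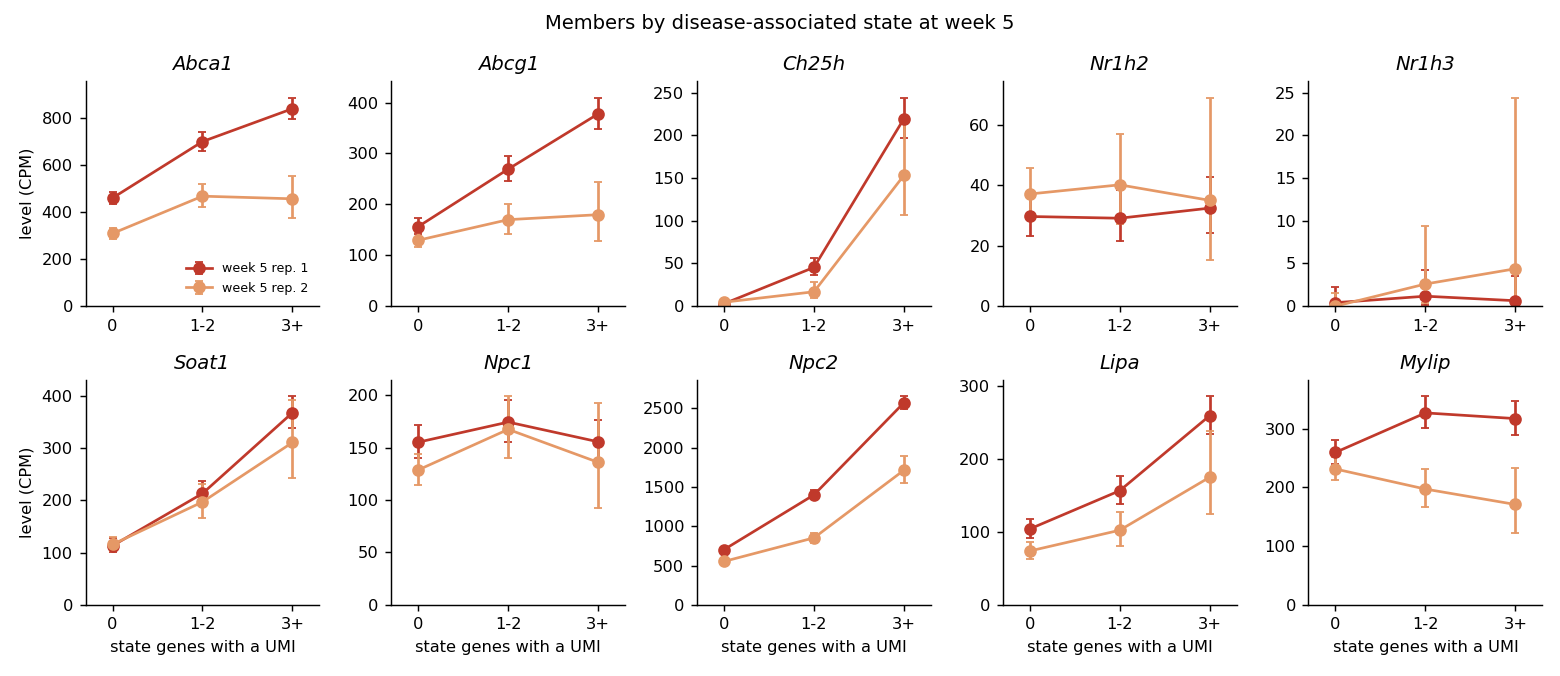
Level of each member (CPM, linear axes from 0) in week 5 microglia-like cells with 0, 1 to 2 and 3 or more state genes, 1 line per library, with bars for the 95% counting interval. Ch25h, Npc2, Soat1 and Lipa climb in both libraries, and Npc1 lies between 129 and 174 CPM throughout.

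Both exporters were also higher with the state. Abca1 was at 459, 699 and 838 CPM in replicate 1 and 309, 467 and 456 CPM in replicate 2. In replicate 2 it was no higher with 3 and more state genes than with 1 to 2. The log2 fold change was 0.75 (SE 0.16, edgeR adjusted p = 0.000952), and it was 0.24 with an adjusted p of 0.224 when only the library size was scaled. Relative to the median of all genes it was at 0.81 under either scaling. A change of scaling shifts all genes by about the same amount, so this value cannot show which scaling is right. The highest class of Abca1 in replicate 2 (456 CPM) lay just below its lowest in replicate 1 (459 CPM), so across libraries the classes overlapped. Abcg1 was at 156, 269 and 378 CPM in replicate 1 and 129, 170 and 180 CPM in replicate 2. It climbed in both libraries, 2.42-fold and 1.39-fold from the lowest to the highest class (log2 fold change 1.01, SE 0.17, adjusted p = 0.000115), and did not pass with thinned counts (0.67, adjusted p = 0.0626).

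For the other 3 tested members the classes overlapped between libraries. Nr1h2 was at 29.7, 29.1 and 32.5 CPM in replicate 1 and 37.2, 40.2 and 35.1 CPM in replicate 2 (log2 fold change 0.09, SE 0.26, adjusted p = 0.834). Npc1 was at 155, 174 and 155 CPM and at 129, 167 and 136 CPM (0.04, SE 0.16, adjusted p = 0.884). Mylip was at 260, 327 and 317 CPM and at 231, 197 and 171 CPM, with the highest class above the lowest in replicate 1 and below it in replicate 2 (0.02, SE 0.18, adjusted p = 0.942). When only library size was scaled, the median of all genes moved from -0.05 to -0.58, and these 3 then had log2 fold changes of -0.43, -0.48 (adjusted p = 0.0207) and -0.50 (adjusted p = 0.0120) for Nr1h2, Npc1 and Mylip. That scaling also changed the split of all calls from 58.0% to 17.6% upward. Relative to that median they were at 0.15, 0.10 and 0.08 under either scaling, which again cannot show which scaling is right. Nr1h3 had 1, 2 and 1 UMIs in replicate 1 and 0, 2 and 1 in replicate 2, too few to compare.

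Summed monocyte markers moved with the state, from 19.5 and 10.6 CPM of all UMIs in cells with no state gene to 296 and 96.1 CPM in cells with 3 and more. Summed microglia markers were at 29523 and 29277 CPM in the former and at 12005 and 9309 CPM in the latter. Choroid plexus markers were at 609 CPM in the highest class of replicate 1 and at 0 in that of replicate 2. Oligodendrocyte precursor markers were at 0.454 and 0.507 CPM with no state gene and at 46.2 and 53.8 CPM with 3 and more. Endothelial and mural markers went from 18.2 and 13.7 to 94.2 and 80.8 CPM, and T and NK cell markers from 33.2 and 22.3 to 66.4 and 88.4 CPM. The last 3 marker classes were higher in the highest class of both libraries, and the part of all these markers in the members' differences was not tested.

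**Figure D3:**
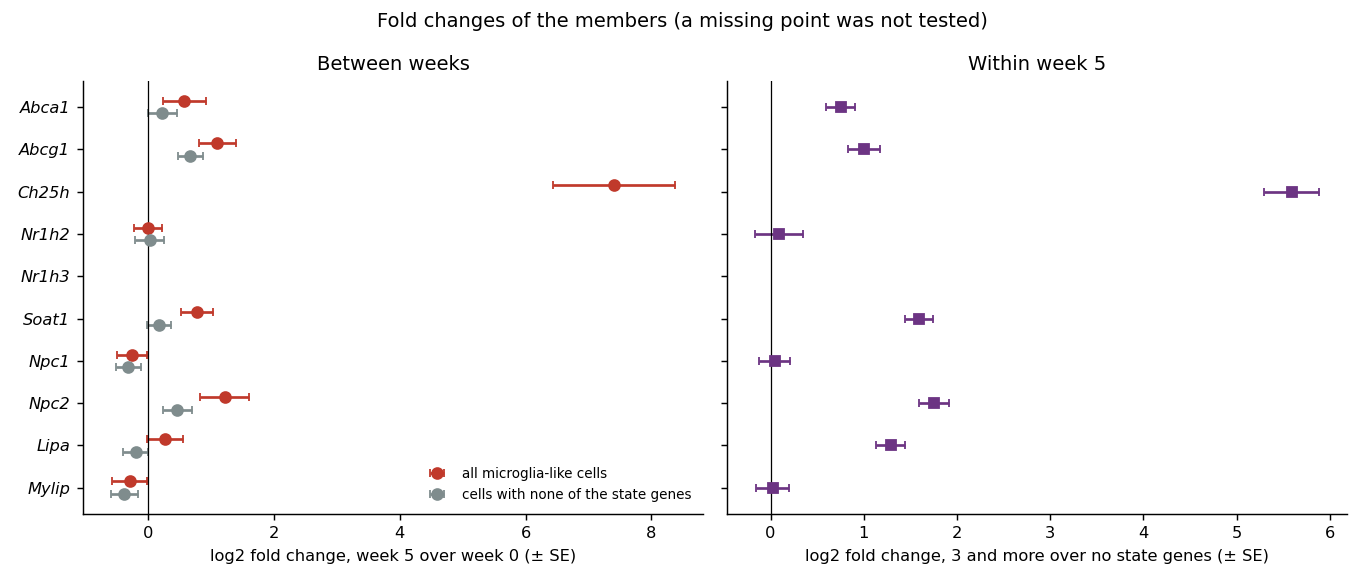
Log2 fold change of each member with its SE. On the left, week 5 over week 0 in all microglia-like cells and in those with no state gene, and on the right, cells with 3 and more over none within week 5. Ch25h stands at 7.41 between weeks and 5.59 within week 5, Abcg1 at 1.10 in all cells and 0.67 in cells with no state gene, and a missing point was not tested.

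The weeks were also compared in cells with no state gene only, 727 and 798 at week 0 and 417 and 504 at week 5. None of the 8 tested members was called by edgeR, beside 2.21% of all 10163 genes tested and 2.05% called higher. DESeq2 also called 0 of the 8. The 8 members had a median log2 fold change of 0.10, against -0.01 for all genes. Both week 5 libraries lay above both week 0 libraries in 3 of 8 members and below in 2 of 8, against 16.8% and 18% of all genes.

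Abcg1 had the largest fold of the 8. It was at 110 and 106 CPM before treatment, and at 186 and 157 after it. The groups did not overlap, and the log2 fold change of 0.67 (SE 0.20) gave an edgeR adjusted p of 0.0733, or 0.0216 without week 5 replicate 2. Npc2 was at 488 and 603 CPM against 838 and 670 CPM, again without overlap (0.46, SE 0.23, adjusted p = 0.595). Soat1 was at 119 and 125 CPM against 135 and 141 CPM. Its log2 fold change was 0.17 (SE 0.19, adjusted p = 0.982). Abca1, at 466 and 326 CPM against 548 and 375 CPM, overlapped between the weeks (0.22, SE 0.23), and its sign turned without week 0 replicate 2 or week 5 replicate 1.

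Lower in both week 5 libraries, without passing, were Npc1 (218 and 207 against 185 and 156 CPM, log2 fold change -0.32, SE 0.20) and Mylip (341 and 426 against 310 and 281 CPM, -0.38, SE 0.21). Lipa (-0.20, SE 0.20) and Nr1h2 (0.02, SE 0.23) overlapped between the weeks. The adjusted p of these 4 lay between 0.746 for Mylip and 1.00 for Nr1h2. Ch25h had 0 and 0 UMIs at week 0 and 7 and 11 at week 5 in these cells, below the filter of the test. With 3 UMIs over both week 0 libraries taken as the floor, the bound was at least 7.26-fold higher for the first week 5 library and at least 11.9-fold higher for the second. The lower 95% counting limits of these ratios, which also cover the error of the week 5 counts, were 4.49 and 8.16. The difference between this comparison and the one over all microglia-like cells was not itself tested.

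Clusters describe the same cells without the state genes as a rule, though genes of both sets could enter the clustering, so these levels are given with no test and relative to all UMIs. In week 5 replicates 1 and 2, Ch25h was at 115 and 112 CPM in the cluster led by Apoc4, Apoc1, Fabp5 and Spp1 and at 185 and 131 CPM in a shallow cluster led by Lilrb4a, Itgax and Axl. It was at 76.5 and 23.0 CPM in a cluster led by Ccl3, Ccl12 and Isg15. In the other 5 microglia-like clusters it was between 0 and 4.47 CPM. Soat1 was highest in the Lilrb4a-led cluster, 371 and 323 CPM, against 258 and 242 CPM in the Apoc4-led one. Npc2 had the other order, 1949 and 1924 CPM in the Apoc4-led and 798 and 660 CPM in the Lilrb4a-led cluster. Soat1 was thus higher in the one and Npc2 in the other of these 2 state-rich clusters. The Lilrb4a-led cluster held only 40 and 47 UMIs of Soat1. Its summed microglia markers were 6.32 times the next class, the lowest ratio of the microglia-like clusters (next lowest 11.2). It did not keep that name at the stricter marker ratio of the closing section. Its summed monocyte markers, at 430 CPM, were the highest of these clusters (next highest 211 CPM). The part of such markers in its levels was not tested.

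Border-associated macrophage-like cells, 20, 4, 28 and 38 of them, were too few for a test. They had 2 and 2 UMIs of Ch25h at week 0 and 12 and 4 at week 5. Relative to their UMIs this was 18.1 and 78.7 CPM before treatment, and 60.0 and 21.3 after it. At week 0 these few cells held 4 molecules of Ch25h, against 2 in all microglia-like cells. Their cluster also carried markers of monocytes (1162 CPM) and of T and NK cells (1678 CPM), so the level is that of a mixed cluster. Abca1 had 17, 0, 69 and 40 UMIs in them and Npc2 77, 18, 199 and 136.

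Around the members, 66 other genes of sterol handling were looked at in 7 groups, of which 65 were listed. Between the weeks, 8 of the 51 tested rose and 0 fell, beside 3.26% of all genes called higher and 0.37% lower. Of the other receptor targets and lipoprotein acceptors, 6 of 10 rose. Apoe, the apolipoprotein that takes up cholesterol from Abca1, was at 922 and 382 CPM before treatment, and at 57664 and 22232 after it. Both week 5 libraries lay far above week 0 (log2 fold change 5.94, SE 0.83, edgeR adjusted p = 0.00147), but the call was lost without week 0 replicate 1 (adjusted p = 0.0726) or replicate 2 (0.146). The lipoprotein lipase Lpl was at 18.6 and 16.6 CPM against 814 and 246 CPM (4.92, SE 0.52, adjusted p = 0.000250), and Pltp, which moves phospholipid between particles, at 2.49 and 0.828 against 17.7 and 4.55 CPM (2.98, SE 0.71, adjusted p = 0.0381). The call of Pltp was lost under limma-voom (adjusted p = 0.121), when week 5 replicate 1 was left out (0.719), in all cells (0.371) and in cells with at most 2900 genes (0.136). Among the apolipoprotein genes next to Apoe, Apoc1 had 1 UMI at week 0, and Apoc2 and Apoc4 had 0. Like Ch25h, they passed the gene filter of the test through week 5 alone. At week 5, Apoc1 was at 802 and 60.4 CPM, Apoc2 at 85.9 and 13.3 CPM, and Apoc4 at 200.2 and 33.4 CPM. Apoc2 was thus at least 207-fold higher in the first and at least 32.1-fold in the second week 5 library, and it did not pass in all cells (adjusted p = 0.284). Under limma-voom neither Apoc1 (adjusted p = 0.0761) nor Apoc2 (0.0666) passed. The median of the 10 genes was 3.95, also with Apoc2 and Apoc4 set at their bounds.

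Of the ester cycle and droplet genes, 2 of 6 rose. Nceh1, a neutral cholesterol ester hydrolase that works against Soat1, was at 17.0 and 17.6 CPM before treatment, and at 106 and 53.6 after it (log2 fold change 2.21, SE 0.31, edgeR adjusted p = 0.00162). Plin2, a droplet coat protein, was at 20.7 and 21.1 against 106 and 46.4 CPM (1.88, SE 0.34, adjusted p = 0.00806). Both were higher in each week 5 library, and the median of this group was 0.91. None of the 7 tested receptor partners and co-regulators passed (median -0.12), nor of 9 genes of oxysterol handling (-0.01), 10 of lysosomal and membrane-contact transfer (0.08), 3 of sterol uptake (0.65) and 6 of the SREBP2 arm (-0.11), the pathway that senses low cholesterol. Cyp27a1, which makes 27-hydroxycholesterol, was at 30.3 and 31.7 against 32.4 and 35.7 CPM (log2 fold change 0.13, SE 0.22, and -0.09 when only library size was scaled).

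By state within week 5, 18 of 53 tested genes of these groups were higher and 3 lower in cells with 3 and more state genes, beside 15.1% and 10.9% of all genes. When only library size was scaled, which moves the median of all genes to -0.58, 14 were higher and 23 lower. Of all 10220 genes, that scaling called 4797, and 17.6% of these calls were upward. The receptor targets gave 8 of the 18, among them Srebf1 (log2 fold change 1.16, SE 0.33, edgeR adjusted p = 0.0103) and the desaturase Scd2 (1.62, SE 0.17, adjusted p = 2.52e-07) besides the 6 that rose between weeks. The ester cycle gave Nceh1 (2.54, SE 0.18), Plin2 (2.70, SE 0.24) and Plin3 (1.82, SE 0.31), and the hormone-sensitive lipase Lipe was lower (-1.25, SE 0.37, adjusted p = 0.0149). Sterol uptake gave the scavenger receptors Msr1 (2.89, SE 0.61) and Cd36 (3.39, SE 0.73) and the receptor chaperone Lrpap1 (1.44, SE 0.15). In the highest class of replicate 2, Msr1, Cd36 and the receptor target Pltp were each at 8.76 CPM, below the floor of 3 counts there (13.1 CPM). Msr1 and Cd36 were tested under only 5 of the other settings, and passed in these. Lysosomal and membrane-contact transfer gave the lysosomal membrane genes Lamp1 (0.98, SE 0.16) and Lamp2 (0.52, SE 0.15) and the sterol transfer gene Gramd1b (0.86, SE 0.29).

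Of the oxysterol group, the oxysterol-binding protein gene Osbp was lower (log2 fold change -1.09, SE 0.31, edgeR adjusted p = 0.0129) and its relative Osbpl8 higher (0.76, SE 0.20, adjusted p = 0.00602). The co-repressor Nrip1 was lower (-1.83, SE 0.18, adjusted p = 9.46e-08). In DESeq2 Osbp (adjusted p = 0.191), Osbpl8 (0.105), Srebf1 (0.301), Gramd1b (0.476) and Lipe (0.266) did not pass. With thinned counts Osbp did not pass either (0.491), and when only library size was scaled neither did Osbpl8 (0.336), Srebf1 (0.111), Gramd1b (0.390) and Lamp2 (log2 fold change 0.0069, adjusted p = 0.975). Gpr183, a receptor for a product made from 25-hydroxycholesterol, had 0.08 (SE 0.15, adjusted p = 0.768), and -0.44 when only library size was scaled, where it passed (adjusted p = 0.0215). Relative to the median it was at 0.13 and 0.14, nearly equal because a change of scaling shifts all genes alike. None of the 6 tested SREBP2 arm genes passed, with a median of -0.31 against -0.05 for all genes. In cells with no state gene, Apoe (4.40, SE 0.35), Apoc1 (7.65, SE 0.93, from 1 and 0 UMIs), Lpl (2.29, SE 0.24) and Nceh1 (1.02, SE 0.26, adjusted p = 0.0244) rose between weeks, 4 of 48 tested. Nceh1 did not pass there under 5 of 9 other settings. These were library size only, DESeq2, thinned counts, and the fits without week 0 replicate 2 or week 5 replicate 1. Its highest adjusted p over these edgeR and DESeq2 settings was 0.999. Apoc1, which entered the test through its week 5 counts alone, did not pass when week 5 replicate 1 was left out.

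**Figure D4:**
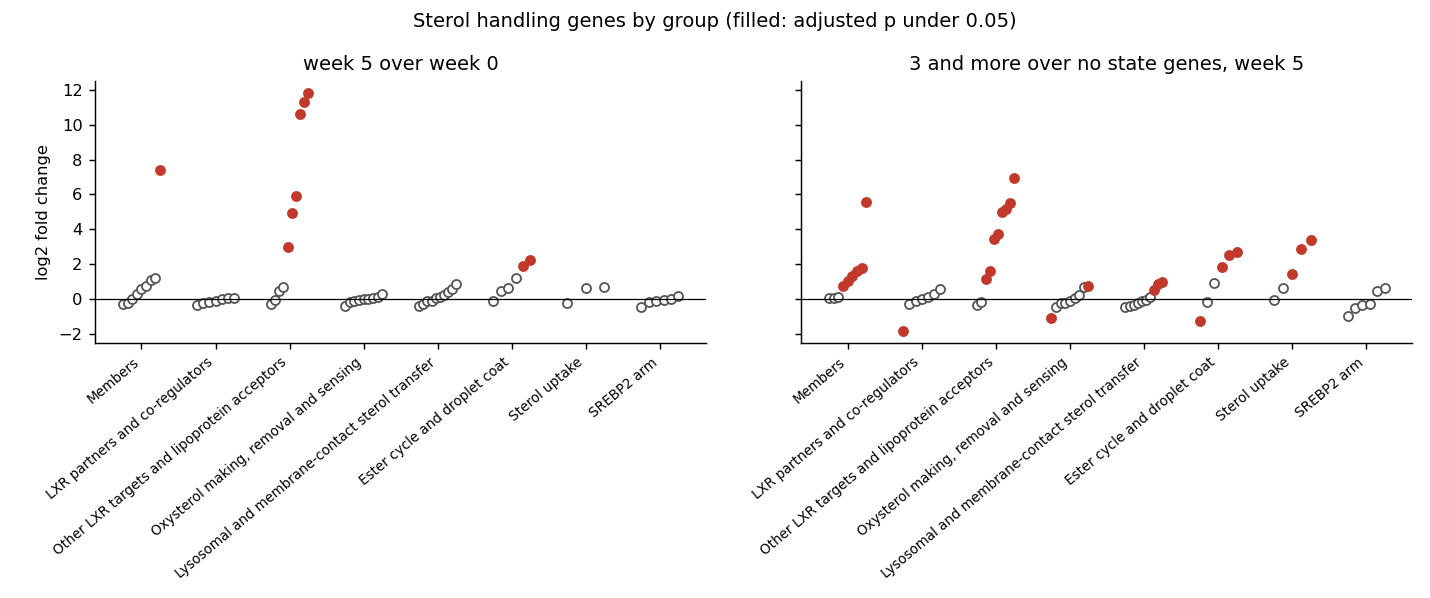
Log2 fold change of every tested gene, by group, 1 point per gene and filled where the adjusted p was under 0.05, between weeks on the left and by state within week 5 on the right. Between weeks the filled points are Ch25h, 6 receptor targets and acceptors, Nceh1 and Plin2, and the highest points on the left, Apoc2, Apoc4 and Apoc1, rest on at most 1 week 0 UMI.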

How the data were processed

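Single-cell RNA was read from the 3′ end with molecular identifiers, per the labels' protocols. The authors deposited raw UMI counts per gene and barcode for each library, with no normalization, as the values show. The submitters' processing notes name Cell Ranger 3.0.0, STAR, Seurat 4 and the build mm10. The most genes in any cell of the 4 tables were 2999, 6615, 3999 and 2996, so cells may have been limited differently before deposit. Barcodes under 500 genes or over 10% mitochondrial UMIs were removed (272 of 4000), 24 doublets were removed with scrublet (scanpy 1.11.5), and 3704 cells were grouped by Leiden clustering into 11 clusters. A cluster was microglia-like where its summed microglia markers reached 5 times the sum of each other class and its 10 top genes held at most 1 marker of any other class, and no more than of microglia. The ratio of 5 and the ranking of top genes (those detected in at least 25% of cells) were set after the clusters were seen. Earlier rankings put monocyte or neutrophil markers among the top genes, which would have barred the comparison by name, so it was also run over all cells.

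UMI sums per library were tested with edgeR 4.0.16 (R 4.3.3; TMM, filterByExpr, quasi-likelihood, Benjamini-Hochberg over all genes). The SE is the absolute log2 fold change divided by the square root of F. The state fit used 6 sums with the library as a term, and its cells share their libraries. The steps were tested on simulated data. DESeq2 1.42.0 and limma 3.58.1 were alternatives, and the other alternatives are in the closing section. Counting intervals and floors of 3 counts cover counting error only. All members are named, and other genes were named where they passed, or else were among the first 2 of a group in its written order. Gpr183 was named outside this rule, after its value was seen. The members and lists were chosen with earlier results of these data known.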

Additional observations from a re-analysis of the deposited data

How the results depend on the processing

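Over 16 other settings for the weeks, 8 for the state and 9 for cells with no state gene, 243 member values kept direction and side of the threshold, 16 newly passed in the same direction, 3 no longer passed and 26 turned in sign, of which Npc1 and Mylip by state passed with library size only. Of the other named genes, 308 values kept theirs, 32 no longer passed and 2 turned in sign, of which Gpr183 passed. Of the 8 other genes of sterol handling called between weeks, 5 to 8 were called under each setting, of the 21 called by state 12 to 21, and of the 4 in cells with no state gene 2 to 4. The number of genes called between weeks was 402, and it was 858 without a gene filter, 146 with thinned cells (fewer genes tested), and 357 to 1499 when 1 library was left out. With the replicate number as a block it was 508. Same-numbered libraries deviated weakly in opposite ways (correlation -0.135 over 11071 genes). With 2 libraries per group the crossed pairing must give the same value with the other sign. This single value thus cannot decide whether the numbers pair the libraries. The crossed pairing as a block, chosen after seeing the data, gave 678 genes called. By state it was 2656, and 982 with thinned counts, 4797 with library size only and 1417 with DESeq2. In cells with no state gene it was 225, 38 with thinned counts, 148 to 303 when 1 library was left out and 189 with the replicate block. Leaving out a library leaves no residual freedom in the state fit, so values per library are given instead. With library size only, 74.6% of calls between weeks were upward against 89.8%, and the median moved to -0.25.

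Signs turned between weeks for Nr1h2, which had 0.0153 with DESeq2, 0.00437 with the replicate block, 0.0563 over all cells, 0.0280 over all barcodes, 0.33 with thinned cells, 0.0241 without cells of 3 and more state genes, 9.85e-05 at a marker ratio of 10, chosen after seeing the data, and -0.11 to 0.15 when 1 library was left out. Lipa had -0.0230 in cells with at most 2900 genes, -0.0843 with thinned cells, -0.0166 without cells of 3 and more state genes, and -0.26 to 0.70 when 1 library was left out. Cyp27a1 had -0.0921 with library size only. By state, Mylip had -0.0696 at 4 and more genes, -0.0109 with DESeq2, -0.00391 without a gene filter and -0.50 with library size only. Npc1 had -0.0654 with thinned counts and -0.48 with library size only, where Nr1h2 had -0.43 and Gpr183 -0.44. In cells with no state gene, Nr1h2 had -0.0551 with library size only and -0.14 to 0.19 when 1 library was left out, Abca1 -0.0729 to 0.50 and Lipa -0.45 to 0.0367. The turns by state with library size only follow the median of all genes, which moved from -0.05 to -0.58. The cause of the other changes was not tested. At 1 to 4 UMIs per library, a difference in Nr1h3 was not detectable.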
